A study of Homo sapiens with 4 samples.

Results

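Transcript levels of MHC class I genes, of the machinery that loads peptides onto class I molecules, of the class I transactivator NLRC5 and of the invariant chain gene CD74 were compared in a bronchial epithelial cell line labelled as depleted of the kinase FER. The 9 genes were taken by symbol (HLA-B, HLA-C, HLA-E, B2M, TAP1, TAP2, TAPBP, NLRC5 and CD74) from a table of 39634 genes with values, and each symbol occurred in 1 row. The libraries came from BEAS-2B, an established line of human bronchial epithelium, cultured on N2B27 medium. There were 2 libraries of cells with a short hairpin RNA (shRNA) against Fer, labelled Fer knockdown, and 2 of cells with a control shRNA, and polyadenylated RNA was sequenced. The labels do not give the hairpin sequences or say whether clones or pools were used, nor that replicates were separate cultures; the p-values thus reflect the spread of these 4 samples alone, which may be technical.

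Classical class I molecules pair a polymorphic heavy chain, encoded by genes such as HLA-B and HLA-C, with beta-2 microglobulin, encoded by B2M, and show peptides of cytosolic origin to CD8 T cells. TAP1 and TAP2 form the transporter that carries these peptides into the endoplasmic reticulum, and tapasin (TAPBP) bridges the transporter to empty class I molecules. HLA-E shows leader peptides of other class I chains to NKG2 receptors of natural killer cells. NLRC5 acts at the promoters of class I genes, B2M and TAP1 through a shared set of promoter boxes, which includes the CCAAT box bound by NF-Y. CD74 is the chaperone of class II molecules and also a surface receptor for the cytokine MIF. Airway epithelial cells express class I molecules constitutively and raise class I and CD74 with interferon gamma. The heavy chain, transporter and tapasin genes lie in the MHC on chromosome 6, a highly polymorphic region of which some genome assemblies carry several alternative haplotype sequences.

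The promoters of 4 of the members are shown because they hold the boxes through which the regulators of these genes act. Each is the 250 bases before the start of the gene in RefSeq (GRCh38.p14), 5′ to 3′ on the strand of the gene. HLA-B lies at chr6:31357180-31357429 and HLA-C at chr6:31272093-31272342, both on the minus strand, B2M at chr15:44711267-44711516 on the plus strand and CD74 at chr5:150412911-150413160 on the minus strand. Capitals mark matches, on either strand, to CCAAT and to the core of the interferon-stimulated response element, which is GAAA, any 2 bases and GAAA.
HLA-B: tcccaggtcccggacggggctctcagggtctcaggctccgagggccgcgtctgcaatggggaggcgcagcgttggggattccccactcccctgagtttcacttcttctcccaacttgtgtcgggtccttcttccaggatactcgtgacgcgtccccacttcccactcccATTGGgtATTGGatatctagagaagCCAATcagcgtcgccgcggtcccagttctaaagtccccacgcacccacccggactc
HLA-C: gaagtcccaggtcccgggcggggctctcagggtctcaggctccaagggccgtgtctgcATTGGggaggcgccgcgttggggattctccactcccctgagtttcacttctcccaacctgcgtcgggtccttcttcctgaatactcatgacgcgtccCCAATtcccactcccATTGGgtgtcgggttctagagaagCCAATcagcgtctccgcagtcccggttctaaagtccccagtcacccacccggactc
B2M: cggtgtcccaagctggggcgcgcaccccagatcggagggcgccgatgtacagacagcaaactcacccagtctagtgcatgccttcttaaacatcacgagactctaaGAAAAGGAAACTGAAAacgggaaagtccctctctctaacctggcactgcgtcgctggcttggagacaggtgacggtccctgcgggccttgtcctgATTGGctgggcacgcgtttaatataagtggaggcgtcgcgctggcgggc
CD74: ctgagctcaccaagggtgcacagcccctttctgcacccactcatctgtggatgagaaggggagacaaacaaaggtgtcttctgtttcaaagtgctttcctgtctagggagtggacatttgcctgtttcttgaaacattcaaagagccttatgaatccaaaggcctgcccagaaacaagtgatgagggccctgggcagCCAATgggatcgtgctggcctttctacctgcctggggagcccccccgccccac

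HLA-B held 3 CCAAT matches, HLA-C 4, and B2M and CD74 1 each. CCAAT was present in 32.0% of 35116 RefSeq promoters of the same length. The interferon-stimulated response element core was matched 2 times in B2M, overlapping itself, and had no exact match in HLA-B, HLA-C or CD74. Only exact matches were sought, so these 3 promoters may still hold a variant of the element. The exact core occurred in 3.02% of all promoters, and in 1 of the 2 promoter entries of TAP1 and in those of TAP2 and TAPBP as well. The HLA-B and HLA-C promoters were identical at 89.0% of 254 aligned positions. Of the other motifs searched, the NF-kB core (GGG, any 5 bases and CC) was present in 54.4% of all promoters, the STAT core (TTC, any 3 bases and GAA) in 6.57% and the cyclic AMP response element in 1.65%. RefSeq entries were matched for 7 of the 9 members, the exceptions being HLA-E and NLRC5.

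Library totals ran from 21422976 to 25169713 counts. The hairpin's target, FER on chromosome 5 (ENSG00000151422), was not lower where the label says it was depleted, with 404 and 535 counts against 334 and 459 in control. Its log2 fold change was 0.02 ± 0.17 (SE) and its adjusted p 0.976 by edgeR. FER mRNA thus does not bear out the label, and directions below refer to the library labels only. Counts of the mitochondrial chromosome made up 9.62% and 9.37% of the libraries labelled Fer knockdown and 16.9% and 19.4% of the control libraries. The summed level of 7 epithelial marker genes was 2861 and 2828 CPM (counts scaled to TMM-adjusted library size) in the libraries labelled Fer knockdown, against 3385 and 2659 CPM in control. KRT8 alone gave 1826 and 1848 CPM of it, against 2094 and 1602 CPM. Single epithelial markers went both ways, with EPCAM at 0.46, CDH1 at 0.45 and KRT7 at -0.40 in log2 units. The 12 leukocyte marker genes summed to 27.6 and 25.8 CPM, against 32.1 and 27.1 CPM in control. Of these CD3E was at 0 in every library and 7 of the 12 were below 10 counts throughout. CD14 was the highest, with 16.3 and 17.3 CPM, against 24.7 and 15.8 CPM in control. ITGAM had 6.34 and 4.63 CPM, against 3.37 and 5.21 CPM, and LAPTM5 4.05 and 2.67 CPM, against 2.59 and 4.38 CPM. The 6 mesenchymal markers summed to 1293 and 1250 CPM, against 2062 and 1830 CPM in control. VIM alone gave 903 and 896 CPM of it, against 1455 and 1256 CPM. Of the 5 mesenchymal markers tested 2 were above 0, COL3A1 at 1.39 and PDGFRB at 0.01 in log2 units. Of the 5, 1 passed, lower, against 0 of 6 epithelial and 0 of 5 leukocyte markers. The part of these marker levels in the results below was not tested. With the mitochondrial chromosome left out of the fit, CD74 was at -0.77 (adjusted p = 0.0573), B2M at -0.30 and NLRC5 at 0.32 in log2 units, and 0 members passed.

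None of the 6 genes with enough counts to test passed, and their values did not lie on one side of 0. CD74 and B2M lay lower in both libraries labelled Fer knockdown than in both control libraries, NLRC5 and HLA-B lay higher, and HLA-C and HLA-E overlapped. TAP1, TAP2 and TAPBP had too few counts to be tested. Of the 6 tested members 0 had an adjusted p under 0.05, where 0.646% of all 15336 tested genes did, and 3 had an unadjusted p under 0.05, where 17.7% of all genes did. DESeq2 called 1 of the 6, CD74, and 572 of all 15336 genes. For limma-voom it was 0 of the 6 and 178 of all genes. In 4 of the 6 the groups did not overlap, against 49.2% of all tested genes, with 2 higher (25.8% of all genes) and 2 lower (23.4% of all genes). The median log2 fold change of the 6 was -0.14, beside 0.01 over all tested genes. In RNA from whole cultures, fewer cells expressing a gene and less RNA per cell cannot be told apart.

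**Figure D1:**
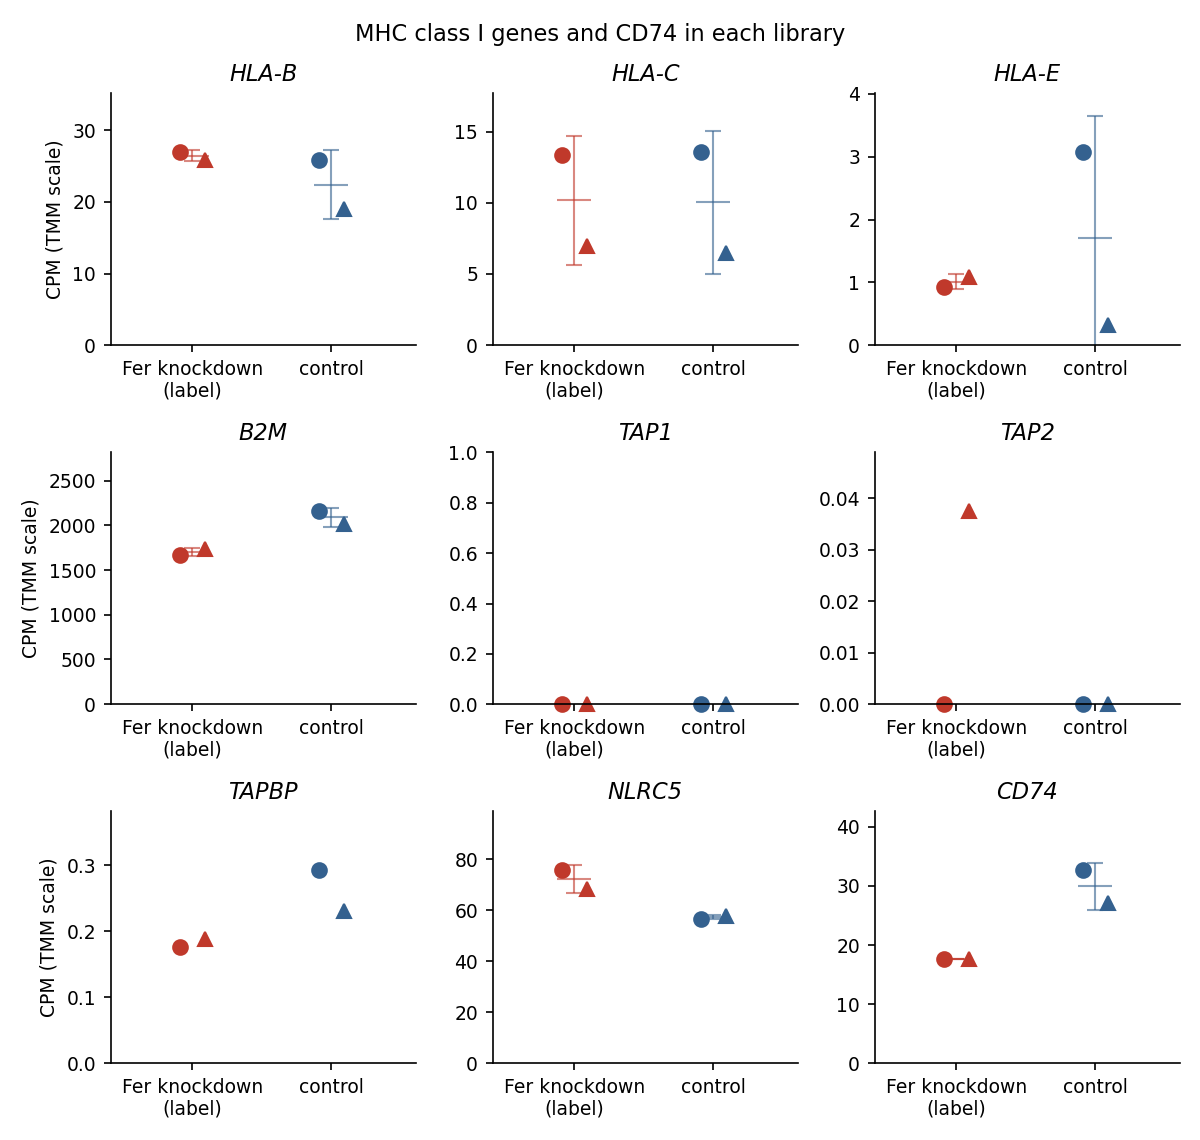
Level of each of the 9 genes in each library, in CPM on the TMM scale, with libraries labelled Fer knockdown (red) left of control (blue), circles for replicate 1 and triangles for replicate 2. Bars give the mean and SD of the 6 tested genes (n = 2 each). The CD74 points of the libraries labelled Fer knockdown coincide at 17.6 CPM, below the control points at 32.8 and 27.1 CPM.

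CD74 came nearest to the threshold. CD74 (ENSG00000019582, chromosome 5) was counted 400 and 468 times in the libraries labelled Fer knockdown, against 670 and 587 times in control. On the scaled values this was 17.61 and 17.62 CPM, against 32.8 and 27.1 CPM. Both libraries labelled Fer knockdown were below both control libraries, and they lay closer to each other than the control libraries did. The mean was 17.6 ± 0.00489 CPM in libraries labelled Fer knockdown and 29.9 ± 4.03 CPM in control (SD, n = 2 each). Counting error alone exceeds the SD of the libraries labelled Fer knockdown, so that SD is no measure of the spread of the group. The ratio of the groups was 0.589, which is -0.76 ± 0.16 in log2 units (SE; 95% interval -1.11 to -0.41; adjusted p = 0.0560 by edgeR). DESeq2 gave an adjusted p of 0.00453 and edgeR without a filter on low counts gave 0.00127. Without Fer knockdown replicate 1 or 2 the log2 fold change stayed at -0.76 and -0.77, and without control replicate 1 or 2 it was -0.62 and -0.92. No exon of another gene overlaps CD74, and 0 of its 3824 windows of 100 bases occur in transcripts of other genes.

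NLRC5, which drives class I transcription, lay in the opposite direction to CD74. NLRC5 (ENSG00000140853, chromosome 16) had 1725 and 1811 counts in libraries labelled Fer knockdown, against 1160 and 1252 in control. That was 76.0 and 68.2 CPM, against 56.7 and 57.7 CPM, so that the groups did not overlap. The mean was 72.1 ± 5.50 CPM in libraries labelled Fer knockdown and 57.2 ± 0.709 CPM in control (SD, n = 2 each). The difference in log2 units was 0.33 ± 0.13 (SE; 95% interval 0.04 to 0.62), with an adjusted p of 0.224 by edgeR (unadjusted 0.0289). Scaled by library totals only, which puts the median gene at 0.18, NLRC5 was at 0.50 (adjusted p = 0.0639). Without control replicate 1 or 2 it was at 0.31 and 0.32, and without Fer knockdown replicate 1 or 2 at 0.25 and 0.41. For each 1000 counts of NLRC5 there were 232 and 258 counts of CD74 in the libraries labelled Fer knockdown, against 578 and 469 in control, a ratio within each library that no scaling factor enters.

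B2M, the light chain of every class I molecule, was the most abundant member and lay slightly lower. B2M (ENSG00000166710, chromosome 15) had 38031 and 46172 counts in libraries labelled Fer knockdown, against 44293 and 43633 in control. On the scaled values it had 1675 and 1738 CPM, against 2166 and 2012 CPM, and the groups did not overlap. The difference in log2 units was -0.29 ± 0.11 (SE; 95% interval -0.53 to -0.05), with an adjusted p of 0.197 by edgeR (unadjusted 0.0211). Scaled by library totals only, B2M was at -0.13. Without control replicate 1 or 2 it was at -0.24 and -0.37. For each 1000 counts of B2M there were 45.4 and 39.2 counts of NLRC5 in the libraries labelled Fer knockdown, against 26.2 and 28.7 in control, and 10.5 and 10.1 counts of CD74, against 15.1 and 13.5.

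Of the heavy chain genes, HLA-B held 614 and 688 counts in libraries labelled Fer knockdown, against 528 and 413 in control. HLA-B (ENSG00000234745, chromosome 6) thus had 27.0 and 25.9 CPM, against 25.8 and 19.0 CPM, and the lower library labelled Fer knockdown lay barely above the higher control library. In log2 units HLA-B was 0.24 ± 0.17 (SE; 95% interval -0.15 to 0.62; adjusted p = 0.517 by edgeR). Without control replicate 2 it was at 0.01, and without control replicate 1 at 0.47. In GENCODE 18.9% of the exonic bases of HLA-B overlap other genes, among them HLA-C.

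HLA-C (ENSG00000204525, chromosome 6) had 304 and 185 counts in libraries labelled Fer knockdown, against 278 and 141 in control. The scaled values were 13.4 and 6.97 CPM, against 13.6 and 6.50 CPM, so the libraries of each group differed by more than the groups did. In log2 units HLA-C was at 0.01 ± 0.36 (SE; 95% interval -0.78 to 0.81; adjusted p = 0.989 by edgeR). Its direction turned when single libraries were left out, to -0.53 without Fer knockdown replicate 1 and to -0.45 without control replicate 2. Without control replicate 1 it was 0.63.

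HLA-E (ENSG00000204592, chromosome 6) had 21 and 29 counts in libraries labelled Fer knockdown, between the 63 and 7 counts of the control libraries. In log2 units HLA-E was at -0.74 ± 0.74 (SE; 95% interval -2.38 to 0.91; adjusted p = 0.653 by edgeR). Without control replicate 1 it was 1.63 and without control replicate 2 it was -1.63, so its direction rests on which control library is used.

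In the deposited counts, the make-up of the 3 heavy chain genes differed between libraries of the same group. All 3 lie in the stretch of chromosome 6 with low counts described below, so their shares may not be those of the transcripts. The share of HLA-B was 65.4% (95% Wilson interval 62.3 to 68.4) and 76.3% (73.4 to 78.9) in their summed counts in libraries labelled Fer knockdown, against 60.8% (57.5 to 64.0) and 73.6% (69.8 to 77.1) in control. HLA-C made up 32.4% and 20.5%, against 32.0% and 25.1%. HLA-E made up 2.24% and 3.22%, against 7.25% and 1.25%. The intervals cover counting error only, and those of HLA-B did not overlap between the 2 libraries of either group. The shares are given as a description, without a test between groups, and the smallest two-sided p of an exact permutation test of 2 libraries against 2 is 0.333.

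Per kilobase of gene length, as deposited, B2M was highest and HLA-B next in both groups, and the place of CD74 differed. HLA-B, HLA-C and HLA-E lie in a stretch of chromosome 6 where most genes had counts near 0, described below, so their place against genes on other chromosomes is uncertain. B2M had 281 ± 7.42 CPM per kb in libraries labelled Fer knockdown and 344 ± 17.9 CPM per kb in control (SD, n = 2 each, here and below). HLA-B had 8.68 ± 0.263 CPM per kb and NLRC5 5.82 ± 0.444 CPM per kb in libraries labelled Fer knockdown, against 7.35 ± 1.57 and 4.62 ± 0.0572 CPM per kb in control. CD74 had 3.69 ± 0.00102 CPM per kb in libraries labelled Fer knockdown, against 6.26 ± 0.843 in control. On these values CD74 lay just below HLA-C (4.06 ± 1.81 CPM per kb) in libraries labelled Fer knockdown and between HLA-B and NLRC5 in control. The deposited length of CD74 is 4780 bases, while its exonic bases in GENCODE number 3184. Both sources give equal lengths for HLA-B, HLA-C and NLRC5, so the place of CD74 among them depends on the length used. In libraries labelled Fer knockdown HLA-C differed from neither NLRC5 nor CD74 by more than its own spread. In control, neither HLA-B and CD74 nor NLRC5 and HLA-C (4.01 ± 2.00 CPM per kb) differed beyond their spread. HLA-E was lowest of the 6, at 0.345 ± 0.0405 CPM per kb in libraries labelled Fer knockdown and 0.583 ± 0.668 in control.

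**Figure D2:**
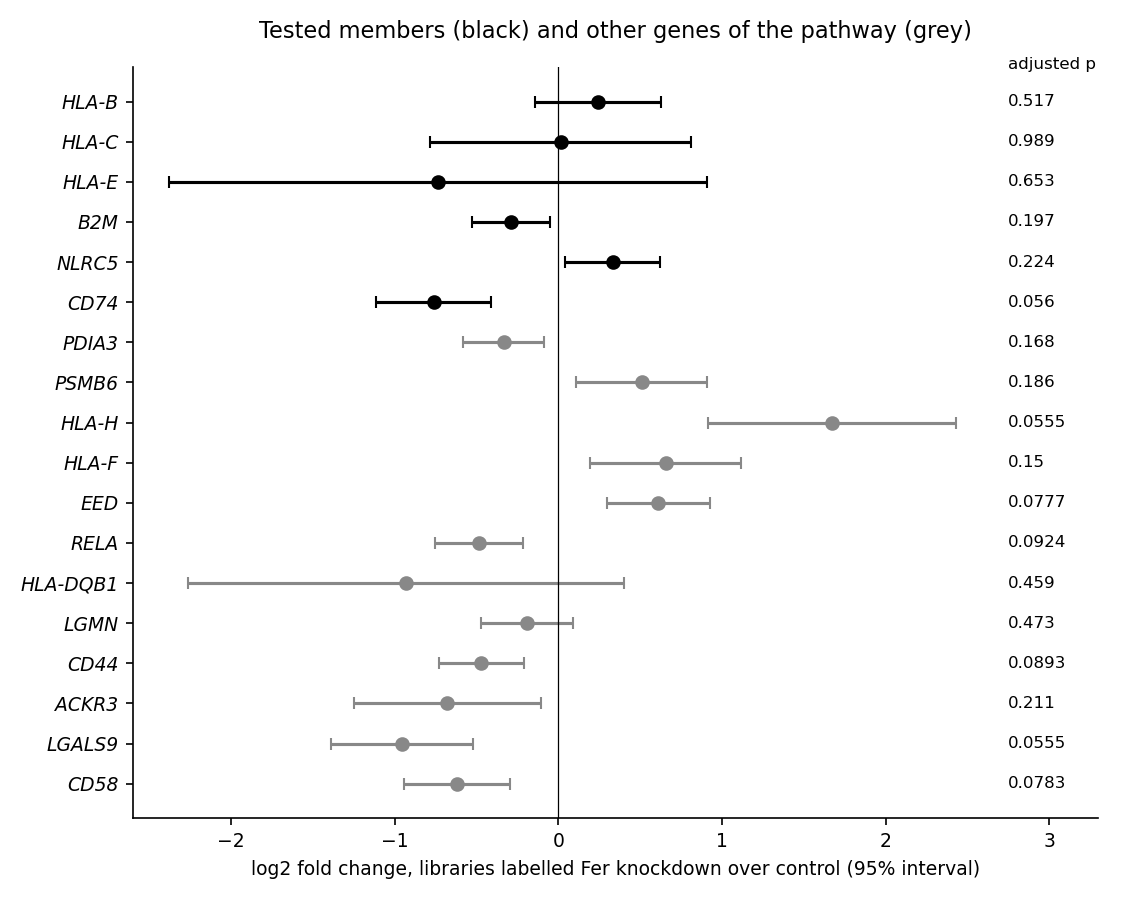
Log2 fold change of libraries labelled Fer knockdown over control with its 95% interval from edgeR, for the 6 tested members (black) and the genes named from the companion lists (grey), with adjusted p at the right. The interval of CD74 runs from -1.11 to -0.41, and no gene shown has an adjusted p under 0.05.

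The peptide transporter and tapasin genes were at or near 0 in every library. TAP1 (ENSG00000168394) was listed at 0 in all 4 libraries. TAP2 (ENSG00000204267) had 0 and 1 counts in libraries labelled Fer knockdown, against 0 and 0 in control. TAPBP (ENSG00000231925) had 4 and 5 counts, against 6 and 5 in control. A count of 0 allows 3 counts, or 0.113 to 0.147 CPM in these libraries, and no fold change is given for the 3 genes. No exon of another gene overlaps TAPBP, and 0 of the windows of 100 bases of TAP1 and 0 of those of TAPBP occur in GENCODE transcripts of other genes. For TAP2, 30.3% of the windows do, in AL669918.1. Alternative haplotype sequences of the MHC were not searched. The windows thus do not show whether reads of these genes matched several places in the genome used for the counts.

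These low counts were shared by most genes of the MHC, which was noticed after the values were seen. Of 143 protein-coding genes in order from HLA-F to TAPBP, 76 (53.1%) had 0 counts in all 4 libraries and 105 (73.4%) had fewer than 10 in sum. Among 866 other protein-coding genes of chromosome 6, 15.4% were at 0 and 26.9% had fewer than 10. Filtering left 27 of the 143 to test (18.9%), against 65.1% of the others on chromosome 6. Genes that dividing cells use at high levels were among those near 0. RPS18, a protein of the small ribosomal subunit, had 1 and 2 counts in libraries labelled Fer knockdown, against 0 and 1 in control, while 80 other ribosomal protein genes had a median of 52301 counts summed over the 4 libraries, with 2 of the 80 at or under the 4 counts of RPS18. TUBB, a major beta-tubulin gene, had 0 and 2 counts, against 2 and 2 in control. The highest of 9 other beta-tubulin genes had 58014 in sum, and 1 of the 9 was at or under the 6 counts of TUBB.

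The whole stretch held 5491 and 5521 counts in libraries labelled Fer knockdown, against 4423 and 3501 in control. How reads that match several places were treated is not given in the sources used here, and its part in these counts was not tested. The deposited counts therefore do not show whether TAP1, TAP2 and TAPBP are transcribed in BEAS-2B cells.

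Genes of this stretch also varied more between libraries of the same group. Over its 27 tested genes the median absolute difference in log2 CPM was 0.39 between the 2 libraries labelled Fer knockdown and 0.59 between the 2 control libraries. Over the other tested protein-coding genes of chromosome 6 it was 0.12 and 0.26. The median SE of the log2 fold change was 0.47 in the stretch and 0.17 on the rest of chromosome 6. These sets of genes were not matched for counts, and some tested genes of the stretch had few. TNXB had 27 counts and HLA-DQB1 37, summed over the 4 libraries. The part of low counts in this wider spread was not tested. The single call in the stretch was NELFE, which encodes part of the negative elongation factor, with 293 and 594 counts in libraries labelled Fer knockdown, against 27 and 16 in control.

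The other class I genes lay on both sides of 0. Of 18 listed, 11 were tested and 0 passed, with a median log2 fold change of -0.03 and 5 of 11 above 0. HLA-H, a class I pseudogene, had 150 and 113 counts in libraries labelled Fer knockdown, against 44 and 27 in control, or 1.67 ± 0.34 in log2 units (SE; adjusted p = 0.0555 by edgeR). In GENCODE 31.8% of the exonic bases of HLA-H overlap another gene, so its counts are uncertain. HLA-F, a non-classical class I gene, had 633 and 640 counts, against 410 and 281 in control, or 0.66 ± 0.21 in log2 units (SE; adjusted p = 0.150), with 28.5% of its exonic bases overlapping other genes. The summed level of HLA-B, HLA-C and HLA-E was 41.3 and 34.0 CPM in libraries labelled Fer knockdown, against 42.5 and 25.9 CPM in control, and the groups overlapped.

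Peptide supply, the step before the transporter, did not pass the test in any gene. Of 20 genes for proteasome subunits, trimming peptidases and chaperones, 18 were tested and 0 passed, with a median of -0.02 and 7 of 18 above 0. PDIA3, the disulphide isomerase ERp57 of the peptide-loading complex, had 305 and 311 CPM in libraries labelled Fer knockdown, against 394 and 383 CPM in control, or -0.33 ± 0.11 in log2 units (SE; adjusted p = 0.168). PSMB6, a catalytic subunit of the constitutive proteasome, had 140 and 138 CPM, against 118 and 77.7 CPM, at 0.51 ± 0.18 (SE, adjusted p = 0.186). The immunoproteasome genes PSMB8 and PSMB9, which lie beside TAP1 in the MHC, were not tested. PSMB8 was at 0 in all 4 libraries, and PSMB9 had 2 and 0 counts in libraries labelled Fer knockdown, against 3 and 1 in control.

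Regulators of class I transcription and of interferon signalling gave no call either. Of 35 listed, 33 were tested and 0 passed, with a median of -0.03 and 14 of 33 above 0. EED, a subunit of Polycomb repressive complex 2, which is known to silence class I genes in some tumours, had 36.0 and 39.8 CPM in libraries labelled Fer knockdown, against 24.5 and 25.3 CPM in control. Its log2 fold change was 0.61 ± 0.14 (SE, adjusted p = 0.0777). RELA, the NF-kB subunit p65, had 119 and 114 CPM, against 156 and 169 CPM, at -0.48 ± 0.12 (SE, adjusted p = 0.0924). The interferon gene IFNB1 was at 0 in all 4 libraries, and IFNL1 had 2 and 7 counts in libraries labelled Fer knockdown, against 2 and 4 in control.

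**Figure D3:**
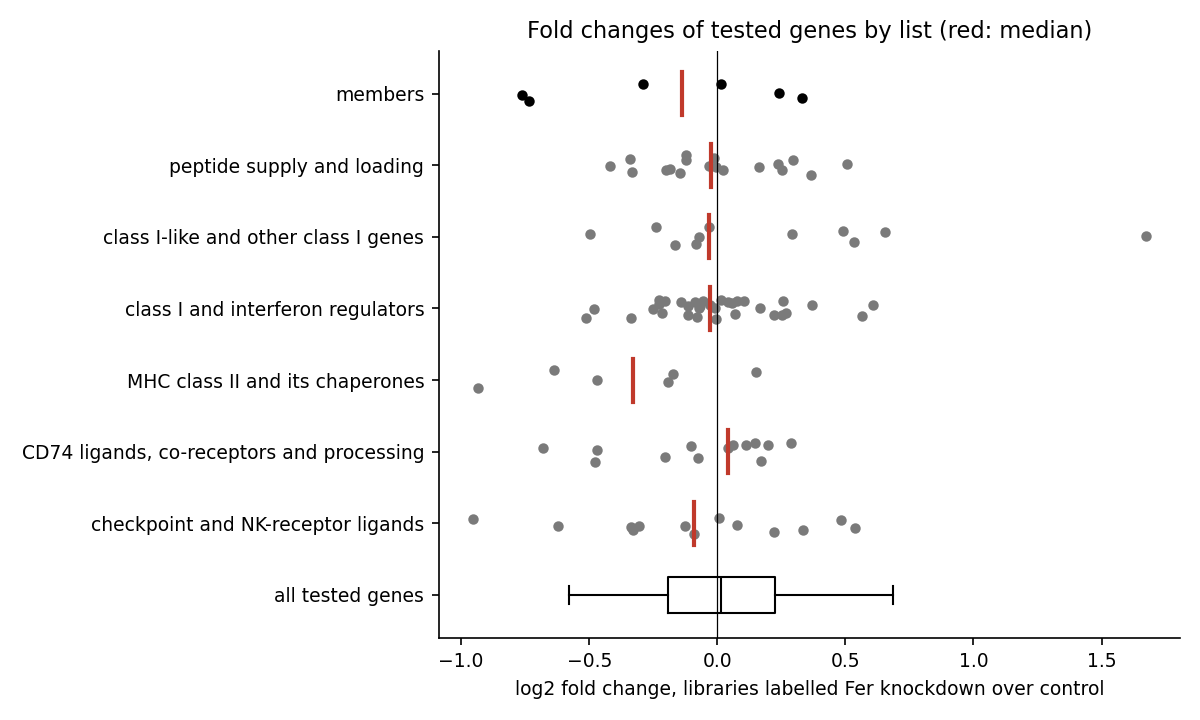
Log2 fold change of libraries labelled Fer knockdown over control for the tested members (black) and the tested genes of each list (grey), with each median in red. The box at the bottom spans the quartiles of all 15336 tested genes, with whiskers from the 5th to the 95th percentile and the median as a line.

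Most of the class II genes that CD74 serves had too few counts to test. Of 16 class II genes and helpers 6 were tested and 0 passed, with a median of -0.33 and 1 of 6 above 0, and the untested ones other than IFI30 lie in the MHC stretch with the low counts described above. HLA-DRA was listed at 0 in all 4 libraries. HLA-DQB1, a class II beta chain, had 6 and 8 counts in libraries labelled Fer knockdown, against 12 and 11 in control, at -0.93 ± 0.60 (SE, adjusted p = 0.459). LGMN, which encodes the lysosomal protease legumain, had 2068 and 2164 counts, against 2044 and 2105. On the scaled values this was 91.06 and 81.48 CPM, against 99.97 and 97.08 CPM, at -0.19 ± 0.13 in log2 units (SE, adjusted p = 0.473).

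The ligands, co-receptors and proteases of CD74 included 13 tested genes of 16, of which 0 passed, with a median of 0.04 and 7 of 13 above 0. CD44, the co-receptor through which CD74 signals, lay lower in both libraries labelled Fer knockdown. CD44 had 171 and 169 CPM in libraries labelled Fer knockdown, against 227 and 246 CPM in control, or -0.47 ± 0.12 in log2 units (SE; 95% interval -0.73 to -0.21; adjusted p = 0.0893 by edgeR). ACKR3, an atypical chemokine receptor that also binds MIF, had 2.69 and 3.77 CPM, against 4.79 and 5.58 CPM, at -0.68 ± 0.26 (SE, adjusted p = 0.211). MIF itself had 8 and 6 counts in libraries labelled Fer knockdown, against 5 and 2 in control, and its homologue DDT had 2 and 2, against 5 and 2. In GENCODE 62.0% of the exonic bases of MIF and 37.8% of those of DDT overlap other genes on either strand, so their levels are uncertain. Neighbours on chromosome 22 differed in level. CABIN1, beside DDT, had 3446 and 3758 counts, against 3834 and 3814 in control. Between MIF and DDT, GSTT2B had 66 and 51 counts, against 37 and 32, and DDTL had 106 and 156, against 90 and 89.

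Of the ligands of T cell and natural killer cell receptors, 13 of 16 were tested and 0 passed, with a median of -0.09 and 6 of 13 above 0. LGALS9, which encodes galectin-9, a ligand of the inhibitory receptor TIM-3, had 5.06 and 5.53 CPM in libraries labelled Fer knockdown, against 10.9 and 9.73 CPM in control. Its log2 fold change was -0.96 ± 0.19 (SE, adjusted p = 0.0555). CD58, the ligand of CD2 on T cells, had 21.8 and 24.7 CPM, against 34.8 and 36.8 CPM, at -0.62 ± 0.15 (SE, adjusted p = 0.0783). Over all 6 lists 0 of 94 tested genes passed and 20 had an unadjusted p under 0.05, where 17.7% of all tested genes did.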

How the data were processed

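The authors deposited a table of raw counts, each gene with its identifier, symbol and length, per the file headers. HISAT2, featureCounts and DESeq2 and the builds hg19 and mm10 are named in the submitters' processing notes, without roles or versions. For strand setting, annotation and reads with several matches, the sources used here give nothing. The column of Fer knockdown replicate 1 carries a shortened name and was matched because no other knockdown library has that number. Of 39635 entries, 1 without values was left out.

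The test was that of edgeR 4.0.16 (R 4.3.3): filterByExpr (15336 genes kept), TMM scaling, quasi-likelihood test without a block, two-sided, Benjamini-Hochberg adjustment over all tested genes, threshold 0.05, with 2 residual degrees of freedom. CPM are on the TMM scale. Each SE is the fold change divided by the root of its F statistic. Alternatives, with DESeq2 1.42.0 and limma 3.58.1 among them, are given in the closing section. Chromosomes, gene order, exon overlaps and shared windows came from GENCODE 29, whose build differs from hg19, so they carry no coordinates. In simulated counts for this comparison (15091 genes), calls were made for 29 of 67 genes at 1.5-fold, for 59 of 67 at 2-fold and for 66 of 66 at 4-fold. There were 5 false calls. Only genes with a mean above 4 CPM were changed, and the simulated spread followed the trend over all genes, with no spread particular to a gene. The rates thus do not cover HLA-E, which lay below that level, or genes that vary more than the trend.

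The members and lists were chosen with earlier results of these data known. All members were named, and from each list up to 4 genes past the threshold or, with none, the 2 with the smallest p; FER checks the labels. Untested list genes, the single marker genes named, CABIN1, GSTT2B, DDTL and the genes and limits describing the MHC stretch were chosen after their values were seen. Ratios of counts within a library were not planned.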

Additional observations from a re-analysis of the deposited data

How the results depend on the processing

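The count of genes past the threshold was 99 of all tested genes (43 higher and 56 lower), and 990 with the replicate number as a block, 443 with library totals alone (396 higher and 47 lower, with the median gene at 0.18), 993 without a filter on low counts, 572 in DESeq2, 178 in limma-voom, 76 with the mitochondrial chromosome left out (41 higher and 35 lower) and between 56 and 4734 with single libraries left out. Leaving one out leaves a lone library, assumed to vary like the other group's. The 9 members gave 0 calls, and 1 (CD74) with the block, without the filter and in DESeq2, and between 0 and 5 with single libraries left out, 5 when either control library was missing. The labels do not say that equal replicate numbers share a culture, and deviations of same-numbered libraries correlated at 0.0373 over genes, with only 2 pairs, so the block is no evidence of pairing. CD74, B2M, NLRC5 and HLA-B kept their sign under all 12 alternatives, with CD74 between -0.92 and -0.60, B2M between -0.37 and -0.13, NLRC5 between 0.25 and 0.50 and HLA-B between 0.01 and 0.47. HLA-C reversed to -0.000232 with a filter of 5 CPM in 2 libraries, to -0.53 without Fer knockdown replicate 1 and to -0.45 without control replicate 2, with single libraries left out giving -0.53 to 0.63. HLA-E reversed to 0.0280 in limma-voom and to 1.63 without control replicate 1, with single libraries left out giving -1.63 to 1.63; the cause was not tested. With library totals alone, 1 gene of the other class I genes and 1 of the regulators passed, both higher. No member symbol repeated, so summing repeated rows could not be run. Per kilobase, shares of HLA-B, HLA-C and HLA-E moved by less than the SD between libraries. HLA-E, TAPBP, TAP2 and TAP1 held between 0 and 63 counts in a library, which limits their precision; the cause of these low counts was not tested.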
